A study of Arabidopsis thaliana with 6 samples.

Results

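Seedlings of the transgenic set labelled MIF_3 were compared with those of the set labelled MIF_1, using the 4 libraries that the labels give to these sets out of the 6 libraries sequenced. Both sets carried pTA7002-Dexp:Myc-MIF, a Myc-tagged MIF transgene in a vector from which dexamethasone switches on expression, and the other 2 libraries were Col-0 wild type (WT). All 3 groups, WT included, were whole Arabidopsis thaliana seedlings grown for 7 days on 1/2 MS medium with 1% sucrose and 10 µM dexamethasone. They had spent 3 days in the cold and grew under 16 h of light at 120 µmol m-2 s-1, at 21 °C by day and 19 °C by night. Each group had 2 poly(A) libraries, and the labels do not say whether these came from separate cultures, so that a p-value here covers only how these libraries vary, which may be technical. What the set numbers 1 and 3 stand for, and the locus of MIF, are not given in the labels, so that the level of the transgene could not be checked. No library came from seedlings with an empty vector or without dexamethasone, and a harvest time or batch is not given, so that set and batch cannot be told apart.

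Plants answer touch, cold, wounding and microbial molecules with a rapid wave of calcium signals, kinases and short-lived transcripts, among them those of ZAT zinc fingers, ethylene response factors (ERFs), WRKY factors and CBF cold regulators. Salicylic acid drives a slower defence programme, read out by secreted pathogenesis-related proteins, and jasmonate drives another against wounding and insects. The title of the series names MORF2, an editing factor of plastid RNA, and plastid signalling, the route by which the state of the plastid alters nuclear transcription.

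For the genes on which the results turn, the 250 bases before the annotated gene start are shown in lower case, with matches to known plant motifs in capitals. STZ and ERF104 had the smallest p in the comparison. CBF2 had the largest fall among called genes with an average log2 CPM (counts scaled to library size) of at least 1. SZF1 was picked after motif matches were seen, because it holds several W-boxes. The upstream stretches of AT4G21650 and WRKY40 held none of the motifs and that of CAF1a held a single heat shock core, and these are not printed. Sequences are from RefSeq's TAIR10.1 on the coding strand, 5′ to 3′; STZ lies at chr1:9649324-9649573 (minus strand), ERF104 at chr5:24767733-24767982 (minus), CBF2 at chr4:13016236-13016485 (minus) and SZF1 at chr3:20775970-20776219 (plus).
STZ: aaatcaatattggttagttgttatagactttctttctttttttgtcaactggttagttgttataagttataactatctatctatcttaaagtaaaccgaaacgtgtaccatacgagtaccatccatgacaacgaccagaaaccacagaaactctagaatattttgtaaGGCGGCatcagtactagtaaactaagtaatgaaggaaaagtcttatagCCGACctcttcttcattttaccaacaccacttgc
ERF104: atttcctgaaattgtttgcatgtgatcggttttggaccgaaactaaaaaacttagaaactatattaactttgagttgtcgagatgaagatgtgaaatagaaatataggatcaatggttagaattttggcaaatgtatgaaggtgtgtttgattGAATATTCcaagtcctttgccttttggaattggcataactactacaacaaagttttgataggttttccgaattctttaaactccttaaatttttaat
CBF2: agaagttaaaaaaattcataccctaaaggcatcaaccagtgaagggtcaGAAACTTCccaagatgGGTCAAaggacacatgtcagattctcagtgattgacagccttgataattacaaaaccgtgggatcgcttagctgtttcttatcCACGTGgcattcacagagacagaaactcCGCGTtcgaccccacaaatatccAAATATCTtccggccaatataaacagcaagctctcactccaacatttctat
SZF1: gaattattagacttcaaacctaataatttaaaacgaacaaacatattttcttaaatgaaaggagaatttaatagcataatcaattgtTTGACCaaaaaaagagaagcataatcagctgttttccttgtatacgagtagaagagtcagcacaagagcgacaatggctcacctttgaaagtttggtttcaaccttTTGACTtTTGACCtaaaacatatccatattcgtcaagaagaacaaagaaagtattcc
Read from the printed strand or its complement, the capitals in STZ mark a GCC-box (GCCGCC), the element that ERFs bind, from 82 bases before the start, and a cold response core (CCGAC) from 34 bases before it. ERF104 holds a heat shock core (GAANNTTC) from 97 bases before the start. The CBF2 stretch holds a heat shock core and a W-box, the element that WRKY factors bind, spelled TTGACC or with a final T in place of the C. It also holds a G-box (CACGTG), the site of many light and stress regulators. Nearer to its start lie a CAMTA core (CGCGT), bound by calmodulin-dependent activators, and an evening element (AAATATCT), named for its role in the clock. SZF1 holds W-boxes from 163, 57 and 50 bases before its start.

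The 6 libraries held between 18262579 and 24698636 counts each. By the number of genes far apart, the MIF_1 replicates were the closest pair. Of 17626 genes of average log2 CPM of at least 1, 50 lay 2-fold apart, against 199 in WT and 220 in MIF_3. The median size of the log2 difference between replicates was similar, at 0.159 in MIF_1, 0.167 in WT and 0.165 in MIF_3. Over the 4 transgenic libraries alone, the first principal component held 51.4% of the variance and separated the sets, and the second held 27.7% and separated the MIF_3 replicates. Jasmonate genes stood far higher in MIF_3 replicate 2 than in the other MIF_3 library, as given below with each result they touch. WT replicate 2 had the largest share of plastid-encoded counts, 0.132%. In whole seedlings, fewer cells of a type and less RNA per cell cannot be told apart.

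Of 20438 genes tested, 97 were higher in MIF_3 than in MIF_1 (0.475%) and 263 were lower (1.29%), 1.76% in all, at an adjusted p below 0.05 from edgeR's quasi-likelihood test, the rule by which genes are called here. The differences were uneven in size as well as in number: 134 genes fell and 43 rose by at least 2-fold, and 47 fell and 6 rose by at least 4-fold. The median log2 difference was 0.009 over all genes tested, 0.92 over the genes called higher and -1.02 over those called lower. Calls rested strongly on the close MIF_1 pair: without MIF_1 replicate 1 the counts were 2 higher and 18 lower, and without MIF_1 replicate 2 they were 12 and 41. Without MIF_3 replicate 1 they were 239 and 267, of which 58 and 175 were called with all libraries, and without MIF_3 replicate 2 they were 189 and 266, of which 64 and 183 were. In all 6 fits that left out a library, 19 genes kept their call: AT1G67865 and AT4G21650 as higher, and STZ, CAF1a, ERF104, CBF2, BT1, MYB77, ACS6, HSPRO2, AT4G27280, AT4G27657, AT4G27652, AT5G17350, AT3G16670, RDUF1, HO4, ACD6 and PPCK1 as lower. These were singled out after their values were seen.

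**Figure D1:**
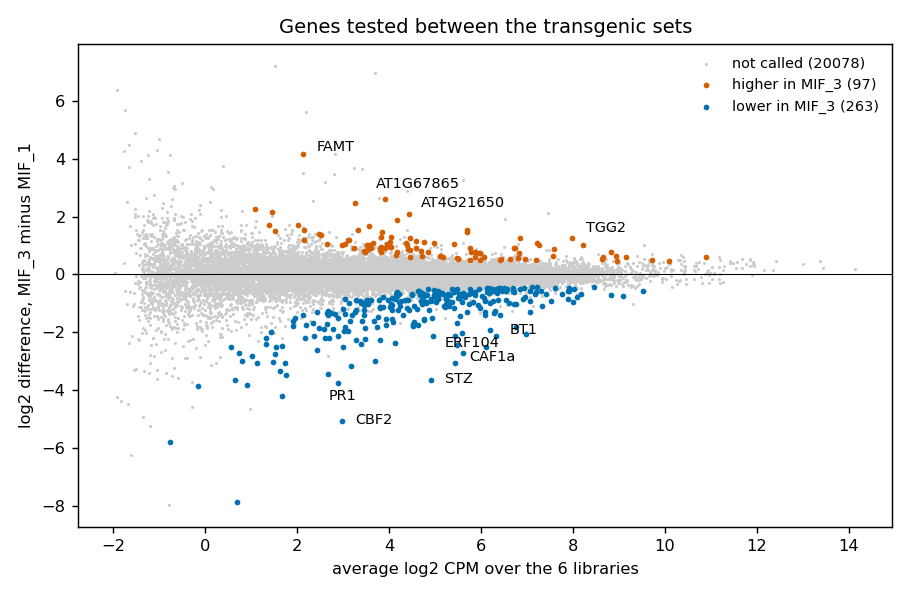
Log2 difference of MIF_3 minus MIF_1 (y axis) against average log2 CPM over the 6 libraries (x axis), 1 point per gene tested. Of the genes called lower, 47 lie at least 4-fold below 0, against 6 genes called higher that lie as far above it.

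Genes of the rapid stress and touch response were lower in MIF_3: 22 of the 52 tested were called lower and none higher. This was 42.3% called, against 1.76% of all genes, and the median log2 difference was -1.17 against 0.009 over all genes. Of the 52, 37 had an unadjusted p below 0.05 and 3 had a positive difference. Over all genes tested, 10518 of 20438 differences were positive. The median of the list was -0.16 in MIF_1 minus WT and -1.31 in MIF_3 minus WT, comparisons that share the same 2 WT libraries. Neither transgenic pair of replicates was apart by as much, with list medians of -0.10 between the MIF_1 libraries and -0.01 between the MIF_3 libraries. No such median was taken for the WT pair, which was less even. CPM summed over the list was 1230.4 for WT replicate 1 but 1941.5 for WT replicate 2. Both MIF_3 sums were lower than these, at 819.9 for replicate 1 but 588.7 for replicate 2, while the MIF_1 sums (1603.1, 1370.6) lay between the WT values.

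STZ (ZAT10, AT1G27730), a zinc finger repressor of transcription induced by salt, cold and strong light, read 35.6 and 50.1 CPM in WT, 41.8 and 46.5 in MIF_1 against 3.4 and 3.63 in MIF_3. Its log2 difference between MIF_3 and MIF_1 was -3.65 ± 0.19 (SE, 2 libraries a set; adjusted p 5.22e-05, edgeR), 12.6-fold lower. Both MIF_3 libraries lay far below the other 4, and WT and MIF_1 overlapped. ERF104 (AT5G61600), an ERF released by the kinase MPK6 in immune signalling, read 44.8 and 45.0 CPM in WT, 39.1 and 40.9 in MIF_1 against 9.04 and 9.03 in MIF_3, a log2 difference of -2.15 ± 0.11 (edgeR adjusted p 5.22e-05). CAF1a (AT3G44260), a deadenylase that shortens mRNA tails, read 44.1 and 74.5 CPM in WT, 63.4 and 63.7 in MIF_1 against 8.49 and 6.81 in MIF_3. It was 8.30-fold lower in MIF_3, at -3.05 ± 0.23 on the log2 scale (edgeR adjusted p 0.000338). In ERF104 as in CAF1a the MIF_3 libraries stood apart and MIF_1 lay within or just under the WT range.

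Among the other transcription factors of the list, ERF11, a repressor of ethylene synthesis genes, read 3.91 and 10.7 CPM in WT, 8.11 and 7.27 in MIF_1 against 1.11 and 1.37 in MIF_3, a log2 difference of -2.63 ± 0.44. ERF6, ERF5 and ERF4 fell by 1.87, 1.47 and 0.97 on the log2 scale. WRKY40, a repressor of early defence genes, read 12.9 and 19.2 CPM in WT, 8.02 and 8.27 in MIF_1 against 2.65 and 2.62 in MIF_3, at -1.63 ± 0.23 on the log2 scale. For WRKY40 the 3 groups formed 3 separate levels, with WT the highest. WRKY46, WRKY53 and WRKY33, further factors of defence and senescence, had log2 differences of -2.13, -1.38 and -1.14, and the zinc finger gene ZAT6 had -1.27. The edgeR adjusted p of these 9 genes ran from 0.0039 for ERF5 to 0.0384 for WRKY33.

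The remaining called members act on RNA, calcium or proteins. SZF1, a CCCH zinc finger protein of salt response, read 152 and 255 CPM in WT, 108 and 80.5 in MIF_1 against 30.6 and 23.0 in MIF_3, a log2 difference of -1.82 ± 0.25 (edgeR adjusted p 0.00711). Its relative CZF1 fell by 1.04 and the deadenylase CAF1b by 1.81 on the log2 scale. CML38, a calmodulin-like calcium sensor, read 7.52 and 13.0 CPM in WT, 7.44 and 7.98 in MIF_1 against 1.78 and 1.57 in MIF_3, at -2.20 ± 0.29 (edgeR adjusted p 0.00671). In SZF1 the MIF_1 libraries were below WT and the MIF_3 libraries lower again, whereas CML38 overlapped between WT and MIF_1. Smaller falls were found for the touch-induced calmodulin TCH2 (-1.32), the ubiquitin ligases ATL2 (-1.55) and PUB23 (-1.02), the cell death inhibitor BAP1 (-1.72), NHL3 (-1.41) and CYP81F2, an indole glucosinolate P450 (-1.63). CYP81F2 read 16.8 and 20.4 CPM in MIF_1 against 6.59 and 5.44 in MIF_3, the latter overlapping the 6.17 and 8.02 of WT.

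The fall of the list kept its sign in every alternative, with medians from -1.33 to -1.03, but the calls did not. Without MIF_1 replicate 1, STZ, CAF1a and ERF104 alone of the 22 remained called (edgeR adjusted p of the 22 from 0.00352 to 0.342), and without MIF_1 replicate 2 these and CZF1, ERF5 and ATL2 did (0.00445 to 0.253). WRKY33, WRKY46 and WRKY53 lost their call without MIF_3 replicate 1 (adjusted p up to 0.094), and WRKY53 also without MIF_3 replicate 2 (0.0533). WRKY40, WRKY33, WRKY53, TCH2, PUB23 and NHL3 overlap a locus on the opposite strand, and since the strand setting of the counts is not given their reads cannot be told apart from those of that locus.

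**Figure D2:**
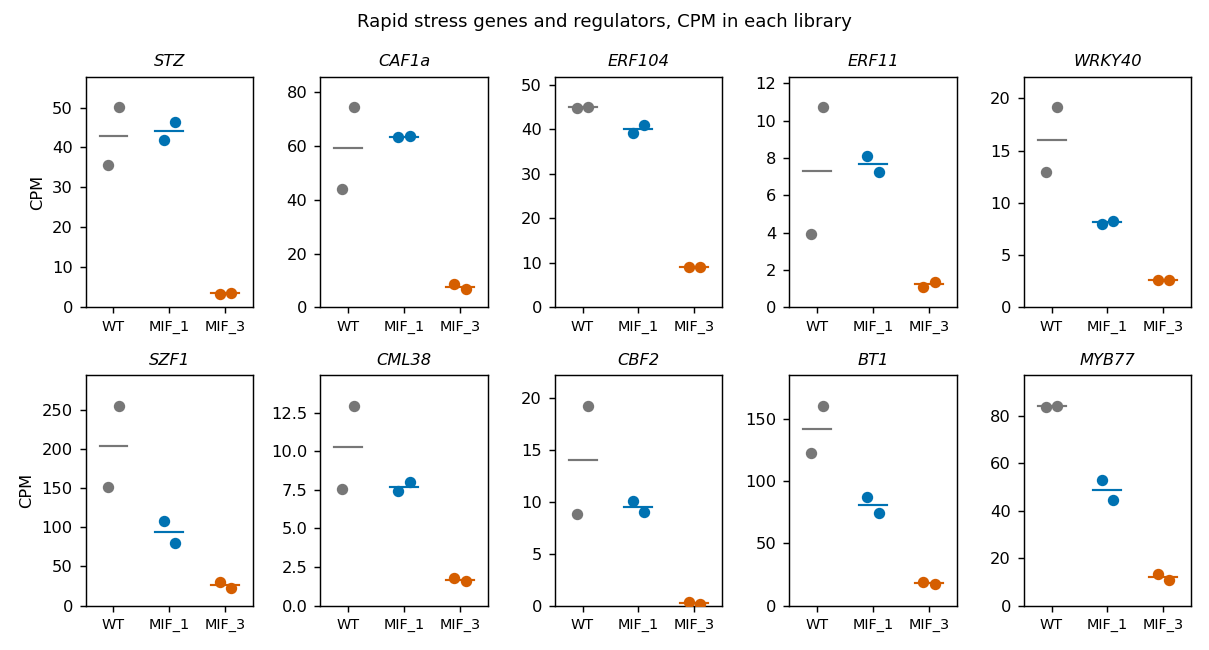
CPM (y axes, each from 0) in each library of WT, MIF_1 and MIF_3 for 10 rapid stress genes and regulators; points are libraries and lines are group means. In all 10 panels both MIF_3 libraries lie below both MIF_1 libraries, and MIF_1 lies within WT for STZ but well below it for SZF1 and BT1.

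Upstream stretches of 250 bases were searched on both strands for 8 motifs over the 20390 genes tested that had one. A W-box was present before 54.5% of the 22 called rapid stress genes, 38.4% of the 263 genes called lower, 20.6% of the 97 called higher and 28.4% of all genes. The GCC-box was before 18.2%, 3.42%, 1.03% and 1.96% of the same groups, and the CAMTA core before 9.09%, 11.4%, 3.09% and 7.40%. The G-box was before 8.75% of the genes called lower and 5.15% of those called higher, against 7.33% of all, and the cold response core before 9.89% and 9.28%, against 12.8%. For the evening element the shares were 6.46%, 7.22% and 4.91%, for the heat shock core 15.2%, 9.28% and 9.24%, and for the telo-box (AAACCCTAA) 2.66%, 1.03% and 2.05%. Among the 22 called rapid stress genes, the cold response core and the heat shock core each had 18.2%, as the GCC-box did, which is 4 genes. In the same 22 the G-box had 9.09%, the evening element 4.55% and the telo-box 0%. A match is a run of letters and not a bound site, and no test was made on these shares.

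Cold-response genes split. Of 20 tested, 2 were called lower and 2 higher, 20.0% against 1.76% of all genes, and the list's median was 0.12. CBF2 (AT4G25470), an activator of cold acclimation genes, read 8.83 and 19.3 CPM in WT, 10.0 and 9.06 in MIF_1 against 0.355 and 0.201 in MIF_3. This was the largest fall among the called genes of average log2 CPM of at least 1, at -5.07 ± 0.48 on the log2 scale (edgeR adjusted p 0.00138). Its close relative CBF1 read 1.71 and 5.79 CPM in WT and 1.3 and 1.33 in MIF_1 against 0 in both MIF_3 libraries. With 63 counts in MIF_1 against 0 in MIF_3, CBF1 was at least 22-fold lower (floor of 3 counts over the group, counting error only; edgeR adjusted p 0.0322). CBF2 and CBF1 were thus near or at the limit of detection in MIF_3. In MIF_1, CBF2 overlapped WT and CBF1 lay just below it.

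KIN1, a small protein that builds up in cold and drought, went the other way, with 24.7 and 16.8 CPM in WT, 5.25 and 8.81 in MIF_1 against 24.7 and 27.8 in MIF_3, a log2 difference of 1.90 ± 0.25 (edgeR adjusted p 0.00546). COR413-PM1, a cold-induced membrane protein, read 145 and 141 CPM in WT, 70.9 and 84.9 in MIF_1 against 121 and 107 in MIF_3, 0.55 ± 0.12 higher (0.0486). For these 2 genes MIF_1 was the low group and MIF_3 was nearer to WT. CBF2 kept its call without any library. CBF1 lost it without each MIF_1 or MIF_3 library (adjusted p 0.0508 to 0.374 over the lost calls of the 4 genes), KIN1 without MIF_1 replicate 1, and COR413-PM1 without MIF_1 replicate 1, MIF_1 replicate 2, MIF_3 replicate 1 or either WT library, and with the transgenic libraries alone. CBF1 and CBF2 are similar in sequence, as are KIN1 and its tandem neighbour, and how reads with several matches were counted is not given.

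Regulators outside the stress list fell as well. BT1 (AT5G63160), a BTB and TAZ domain protein that responds to nitrate, auxin and sugar, read 122 and 161 CPM in WT, 87.6 and 74.1 in MIF_1 against 18.9 and 17.6 in MIF_3, a log2 difference of -2.15 ± 0.15 (edgeR adjusted p 0.00029). MYB77, a MYB factor of auxin-dependent lateral root growth, read 83.9 and 84.5 CPM in WT, 53.0 and 44.7 in MIF_1 against 13.4 and 10.8 in MIF_3, at -2.01 ± 0.14 (0.00029). ACS6, which makes the ethylene precursor ACC and is stabilised by stress kinases, read 133 and 174 CPM in WT, 57.1 and 51.8 in MIF_1 against 14.4 and 14.3 in MIF_3, at -1.92 ± 0.14 (0.000331). In each of the 3 genes the groups did not overlap and stood in the order WT, MIF_1, MIF_3. ACS6 and the repressor gene RAV2 (-1.02) were the 2 genes called of 28 in the ethylene list, whose median was -0.06. The share called was 7.1%, against 1.76% of all genes.

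RTFL12, a small peptide of the ROTUNDIFOLIA family, read 4.72 and 7.66 CPM in WT, 3.49 and 3.41 in MIF_1 against 0.158 and 0.201 in MIF_3, a log2 difference of -4.22 ± 0.45 (edgeR adjusted p 0.00235) that is second to CBF2 among called genes of average log2 CPM of at least 1. Of 18 genes in the mitochondrial dysfunction list, the dicarboxylate carriers DIC2 (-2.71) and UCP5 (-1.10) were called, both lower. They made up 11.1% of the list, against 1.76% called of all genes. FBS1, a stress-induced F-box protein, fell by 1.39 on the log2 scale. It was the only F-box gene called of 175 tested, 0.6% against 1.76% of all genes. Chosen after their values were seen, HSPRO2 read 214 and 328 CPM in WT, 87.7 and 88.0 in MIF_1 against 21.8 and 20.0 in MIF_3, at -2.07, and the calcium-binding protein AT4G27280 had -2.52. The immune kinases MPK3 (-0.99) and MKK9 (-1.14), also named after their values were seen, were lower too, and MPK3 overlaps a locus on the opposite strand. Of the 12 genes in these 2 paragraphs, BT1, MYB77, ACS6, AT4G27280 and HSPRO2 kept their call without MIF_1 replicate 1 (adjusted p of the 12 from 0.0129 to 0.342), and without MIF_1 replicate 2 all did except UCP5, RAV2, FBS1, MPK3 and MKK9 (0.00855 to 0.243). FBS1 and MKK9 lost their call without MIF_3 replicate 1 (up to 0.10), and UCP5 without MIF_3 replicate 2 (0.0531).

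The rest of the 15 largest falls at that level of expression were mostly genes of little known function: AT1G35210 (-3.33), AT4G27657 (-3.17), NUDT24 (-3.06), AT5G39670 (-3.04), AT5G17350 (-3.00) and AT5G24200 (-2.81), with edgeR adjusted p from 0.000819 to 0.0214. AT4G27657 read 14.2 and 20.0 CPM in WT, 8.57 and 9.84 in MIF_1 against 0.711 and 1.33 in MIF_3. Without MIF_1 replicate 1, AT4G27657 and AT5G17350 alone of these 6 stayed called (adjusted p of the 15 up to 0.267), and the same held without MIF_1 replicate 2 (up to 0.235). AT5G24200 also lost its call without MIF_3 replicate 2 (adjusted p 0.0536), and AT5G39670 overlaps loci on the opposite strand.

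Defence genes were lower in MIF_3 as well, and many of those named below were genes that MIF_1 held above WT. In the list of salicylic acid and defence genes, 7 of 34 tested were called lower and none higher, with a median of -0.30. This was 20.6% called, against 1.76% of all genes. The list's median was 0.42 in MIF_1 minus WT and 0.08 in MIF_3 minus WT, which share the same WT libraries. PR1 (AT2G14610), a secreted protein and the classic salicylic acid marker, read 0 and 0.603 CPM in WT, 16.4 and 23.3 in MIF_1 against 1.54 and 1.41 in MIF_3, a log2 difference of -3.75 ± 0.43 (edgeR adjusted p 0.00365). PR1 was near 0 in WT and low in MIF_3, and lost its call with DESeq2 (adjusted p 0.133).

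ACD6, an ankyrin membrane protein that raises salicylic acid, read 8.03 and 8.98 CPM in WT, 31.5 and 25.4 in MIF_1 against 8.09 and 8.66 in MIF_3, at -1.76 ± 0.16 (edgeR adjusted p 0.000866). PBS3, an enzyme of salicylic acid synthesis, read 1.05 and 1.45 CPM in WT, 4.71 and 4.94 in MIF_1 against 0.948 and 1.17 in MIF_3, at -2.18 ± 0.34 (0.0139). In both genes the MIF_3 libraries overlapped those of WT, and MIF_1 alone was high. LURP1, induced late in downy mildew infection, read 0.0502 and 0 CPM in WT, 31.8 and 35.3 in MIF_1 against 14.8 and 8.46 in MIF_3 (-1.53), and RBOHD, the NADPH oxidase of the immune burst, fell by 0.85. CBP60G, an activator of salicylic acid synthesis, had a log2 difference of -1.74. WRKY70 did not share the pattern, with 20.1 and 32.9 CPM in WT, 5.00 and 5.48 in MIF_1 against 2.09 and 1.81 in MIF_3 (-1.42), so that MIF_1 was already below WT.

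Several of the largest falls outside the list had the same order of levels. RLP23, the receptor of a peptide from microbial NLP proteins, read 0.201 and 0.965 CPM in WT, 15.5 and 17.6 in MIF_1 against 1.42 and 1.57 in MIF_3, at -3.46 ± 0.35 (edgeR adjusted p 0.00202). ENODL1 read 0.100 and 0.0603 CPM in WT, 10.3 and 6.98 in MIF_1 against 0.987 and 0.564 in MIF_3 (-3.47), EXL6, an extracellular lipase, fell by 3.06 and AT2G43580, a chitinase family gene, by 2.76. EXL6 and AT2G43580 had 0 counts in both WT libraries. The order WT, MIF_3, MIF_1 from low to high, without overlap, thus held in all 4 genes. The next 3 genes had that order too. The defensin PDF1.3 read 0.351 and 1.02 CPM in WT, 52.0 and 60.7 in MIF_1 against 14.8 and 18.5 in MIF_3 (-1.76). The cysteine protease inhibitor CYS2 read 0.853 and 0.482 in WT, 313 and 341 in MIF_1 against 181 and 128 in MIF_3 (-1.08). HCHIB, a basic chitinase, read 58.4 and 51.5 CPM in WT, 172 and 179 in MIF_1 against 81.2 and 90.9 in MIF_3 (-1.03, edgeR adjusted p 0.00235).

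Of these 14 genes, 7 from the salicylic acid and defence list and 7 from the largest falls and other lists, ACD6 alone stayed called without MIF_1 replicate 1 (adjusted p of the 14 from 0.0378 to 0.345), and ENODL1, ACD6, RBOHD and HCHIB did without MIF_1 replicate 2 (0.0124 to 0.207). WRKY70 lost its call without MIF_3 replicate 1 (with CBP60G, up to 0.0943) and without MIF_3 replicate 2 (0.0843). RLP23, HCHIB and CYS2 overlap a locus on the opposite strand, and PDF1.3 has close relatives with which it may share reads.

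**Figure D3:**
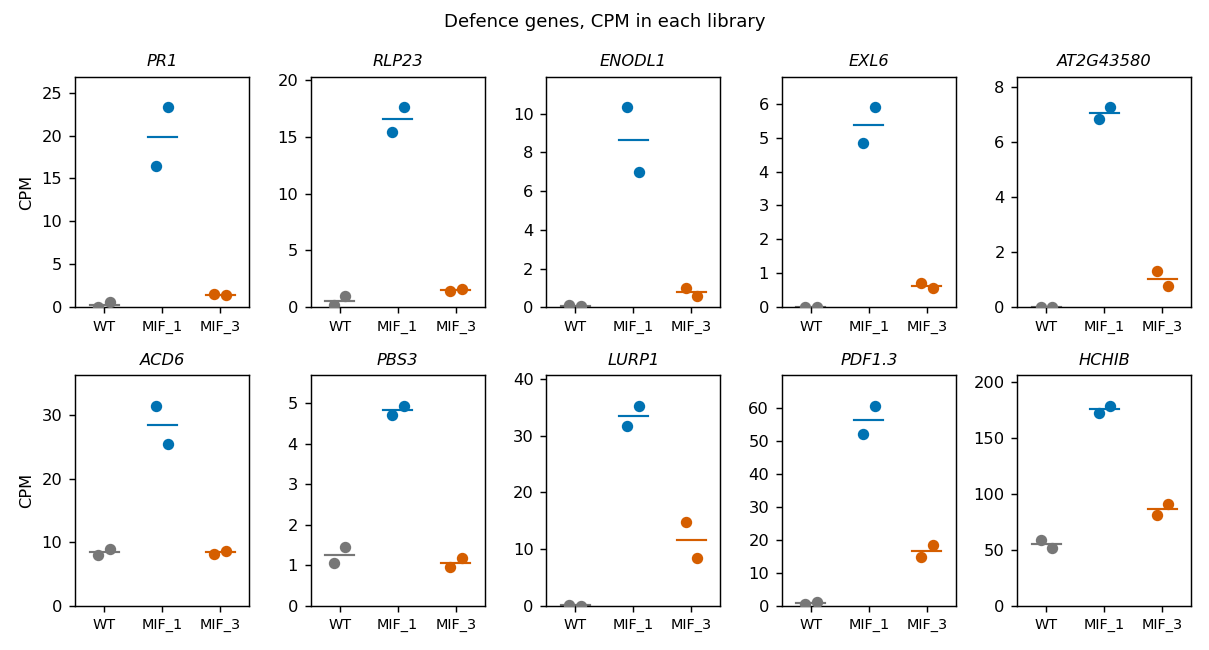
CPM (y axes, each from 0) in each library of WT, MIF_1 and MIF_3 for 10 genes of the defence list, other lists and the largest falls; points are libraries and lines are group means. MIF_1 is the high group in all 10 panels, and MIF_3 lies at the WT level for ACD6 and PBS3 and between WT and MIF_1 for PDF1.3, LURP1 and HCHIB. The panels are a choice from the defence genes named in the text. WRKY70, CBP60G, RBOHD and CYS2 are not shown, and in WRKY70 WT was the highest group.

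Other genes that were nearly silent in WT were also lower in MIF_3 than in MIF_1. CYP702A2, a P450, read 1.1 and 0.301 CPM in WT, 53.0 and 65.5 in MIF_1 against 23.8 and 16.9 in MIF_3, at -1.54 ± 0.23 (edgeR adjusted p 0.0103; 0.0829 with DESeq2). HO4, a heme oxygenase named after its values were seen, read 0.251 and 0.301 CPM in WT, 23.8 and 29.4 in MIF_1 against 6.51 and 4.88 in MIF_3 (-2.22). In both, MIF_3 kept a level well above WT. CYP702A2 lost its call without either MIF_1 library (adjusted p 0.0855 to 0.342 over a group of 3 genes that includes it).

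Enzymes of flavonoid and anthocyanin synthesis were lower in MIF_3: 9 of 36 were called lower and none higher, the median was -0.36, and 20 had an unadjusted p below 0.05. At the entry to the pathway, the phenylalanine ammonia-lyases PAL1 and PAL2 had log2 differences of -0.71 and -0.59, and 4CL2, which activates coumarate, had -0.54. Among later steps, the flavonoid hydroxylase TT7 had -0.78, the anthocyanidin-forming LDOX -0.92, the glycosyltransferases UGT78D2 and UF3GT -0.88 and -0.91, and the vacuolar carrier protein GSTF12 -0.74. LBD37, a repressor of anthocyanin synthesis and nitrate genes, was lower too (-0.45). UGT78D2 read 102 and 106 CPM in WT, 116 and 113 in MIF_1 against 59.5 and 64.9 in MIF_3, a log2 difference of -0.88 ± 0.10 (edgeR adjusted p 0.00307). LDOX read 117 and 101 CPM in WT, 174 and 207 in MIF_1 against 88.3 and 113 in MIF_3. UGT78D2 was thus below WT in MIF_3, while LDOX overlapped WT in MIF_3 and was high in MIF_1.

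None of the 9 stayed called without MIF_1 replicate 1 (edgeR adjusted p 0.0822 to 0.333), and UGT78D2 alone did without MIF_1 replicate 2 (0.0469 to 0.227). TT7, LBD37 and 4CL2 lost their call without MIF_3 replicate 1 (up to 0.0899), PAL2, LBD37 and 4CL2 without MIF_3 replicate 2 (up to 0.141), and LBD37 without either WT library (0.0613 to 0.0618) or with the transgenic libraries alone. With upper-quartile factors LBD37 and 4CL2 lost theirs (up to 0.0515). Of 37 genes in the lignin and suberin list, 6 were called lower and 3 higher, 24.3% against 1.76% of all genes. Beside PAL1, PAL2 and 4CL2, the lower ones were FAH1 (-0.57), a hydroxylase for syringyl lignin, the lignin dehydrogenase ATCAD4 (-0.47) and FAR5 (-0.72), a reductase that makes suberin alcohols. FAH1 read 166 and 161 CPM in WT, 181 and 186 in MIF_1 against 126 and 122 in MIF_3. FAH1, ATCAD4 and FAR5 lost their call without either MIF_1 library (adjusted p 0.124 to 0.267), ATCAD4 without either WT library or MIF_3 replicate 1, with upper-quartile factors and with the transgenic libraries alone, and ATCAD4 and FAR5 without MIF_3 replicate 2.

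Among rises, the largest came from genes with little in common. AT1G67865, an uncharacterised protein, read 24.2 and 27.2 CPM in WT, 2.48 and 3.12 in MIF_1 against 14.2 and 19.7 in MIF_3, a log2 difference of 2.59 ± 0.21 (edgeR adjusted p 0.000476). AT4G21650, a subtilase protease, read 34.5 and 36.5 CPM in WT, 5.13 and 6.23 in MIF_1 against 23.4 and 24.9 in MIF_3, at 2.09 ± 0.14 (0.00029). In both, MIF_1 was far below WT and MIF_3 was between them. PELPK1, a cell wall protein that aids germination and root growth, read 38.5 and 31.5 CPM in WT, 28.5 and 32.7 in MIF_1 against 102 and 76.1 in MIF_3, at 1.54 ± 0.16 (0.00234), so that MIF_3 was the group apart. FAMT, a methyltransferase of farnesoic acid, had the largest difference, 4.17 ± 0.85 (0.0444), but 1 library carried it, with 1.71 and 1.75 CPM in WT, 0.378 and 0.748 in MIF_1 against 2.37 and 18.1 in MIF_3.

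The others of the 15 largest rises, KIN1 apart, were AT4G33720 (2.47), a CAP family protein; the cell wall invertase CWINV5 (2.25); MLP168 (2.15); CYP708A1 (1.72); the SAUR gene AT5G18030 (1.71); the expansin EXPA16 (1.66); the homocysteine methyltransferase HMT3 (1.54); BGLU7 (1.52); AT1G49960 (1.49), of a permease family; and ABCG6 (1.48), a transporter of suberin precursors. EXPA16 read 2.01 and 4.40 CPM in WT, 6.76 and 8.39 in MIF_1 against 31.6 and 16.4 in MIF_3, so that all 3 groups differed, MIF_3 being the highest. Of the 15, AT1G67865 and AT4G21650 kept their call without MIF_1 replicate 1 (edgeR adjusted p of the 15 from 0.0129 to 0.396), and these with KIN1 and PELPK1 without MIF_1 replicate 2 (0.00869 to 0.277). Without MIF_3 replicate 1 the call ended for CYP708A1, AT5G18030, EXPA16 and AT1G49960 (up to 0.127), and without MIF_3 replicate 2 for FAMT, CWINV5, HMT3, BGLU7 and AT1G49960 (up to 0.13). FAMT lost it too without either WT library (0.0519 to 0.0523) and with the transgenic libraries alone (0.0549). CWINV5, CYP708A1 and AT1G49960 overlap loci on the opposite strand.

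Aquaporins, the water channels of plasma membrane and vacuole, were higher in MIF_3: 6 of 25 tested were called higher and none lower. The share called was 24.0%, against 1.76% of all genes and 0.475% called higher. The median was 0.35, and 21 differences were positive, against 10518 of 20438 over all genes. TIP2;2, a vacuolar channel, read 247 and 244 CPM in WT, 109 and 128 in MIF_1 against 241 and 192 in MIF_3, a log2 difference of 0.87 ± 0.13 (edgeR adjusted p 0.0105). The plasma membrane channels PIP1C (0.59), PIP1A (0.53) and PIP1;5 (0.54), the vacuolar DELTA-TIP (0.59) and the boric acid channel NIP6;1 (0.91) were the others. PIP1A read 469 and 444 CPM in WT, 296 and 297 in MIF_1 against 438 and 420 in MIF_3. For TIP2;2, PIP1A and NIP6;1 the MIF_3 libraries were between MIF_1 and WT, whereas DELTA-TIP and PIP1;5 were above WT in MIF_3. None of the 6 stayed called without MIF_1 replicate 1 (0.12 to 0.289) or MIF_1 replicate 2 (0.0788 to 0.166), NIP6;1 lost its call without MIF_3 replicate 1 (0.0525) and PIP1;5 without MIF_3 replicate 2 (0.0712). The PIP1 genes are similar in sequence, and NIP6;1 and DELTA-TIP overlap loci on the opposite strand.

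Some genes of suberin, the waxy polymer of the root endodermis, and of guard cells were among the rises. The lignin and suberin list as a whole had more falls than rises, 6 against 3 with a median of -0.05, and the suberin reductase FAR5 was among the falls. CYP86A1, which hydroxylates fatty acids for root suberin, read 21.8 and 24.2 CPM in WT, 17.5 and 16.7 in MIF_1 against 31.9 and 32.5 in MIF_3, at 0.92 ± 0.12 (edgeR adjusted p 0.00506). GPAT5, an acyltransferase of suberin (1.37), and the peroxidase AT5G66390 (0.65) were the other 2 genes called higher in the lignin and suberin list, and MIF_3 was above both other groups in all 3. FMA (FAMA), the factor that makes guard cells, read 14.4 and 14.8 CPM in WT, 7.27 and 6.65 in MIF_1 against 14.5 and 13.9 in MIF_3, at 1.03 ± 0.15 (0.0101), and the guard cell potassium channel KAT1 had 0.96. FMA and KAT1 were low in MIF_1, with MIF_3 at or just under WT. These 5 genes and ABCG6 lost their call without either MIF_1 library (adjusted p 0.0916 to 0.373 and 0.0778 to 0.189), GPAT5 and AT5G66390 without MIF_3 replicate 1 and AT5G66390 and KAT1 without MIF_3 replicate 2.

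Of 44 root markers, GPAT5 was called higher, 2.3% against 1.76% of all genes. Of their differences 33 were positive, and the median was 0.18, against 0.17 between the MIF_1 replicates and -0.16 between the MIF_3 replicates. The shoot meristem and stomatal list had 2 of 39 called higher (5.1%), FMA and KAT1, and a median of 0.11. Among markers of single tissues, none of the 6 root hair, 6 endodermis, 4 root cap, 3 root stele, 3 shoot meristem or 3 mesophyll markers tested was called, and 1 of 6 stomatal lineage markers was, which is FMA. The list medians were 0.07 for root hair, 0.20 for endodermis, 0.13 for root cap, 0.59 for root stele, -0.16 for shoot meristem, 0.30 for mesophyll and 0.15 for the stomatal lineage. The 3 mesophyll markers summed to 29934 and 30657 CPM in WT, 19859 and 20597 in MIF_1 against 21792 and 25782 in MIF_3, so that MIF_1 had the lowest sums. Of 6 seed storage markers, 1 was tested and it was not called. The part of tissue makeup in the gene results was not tested.

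**Figure D4:**
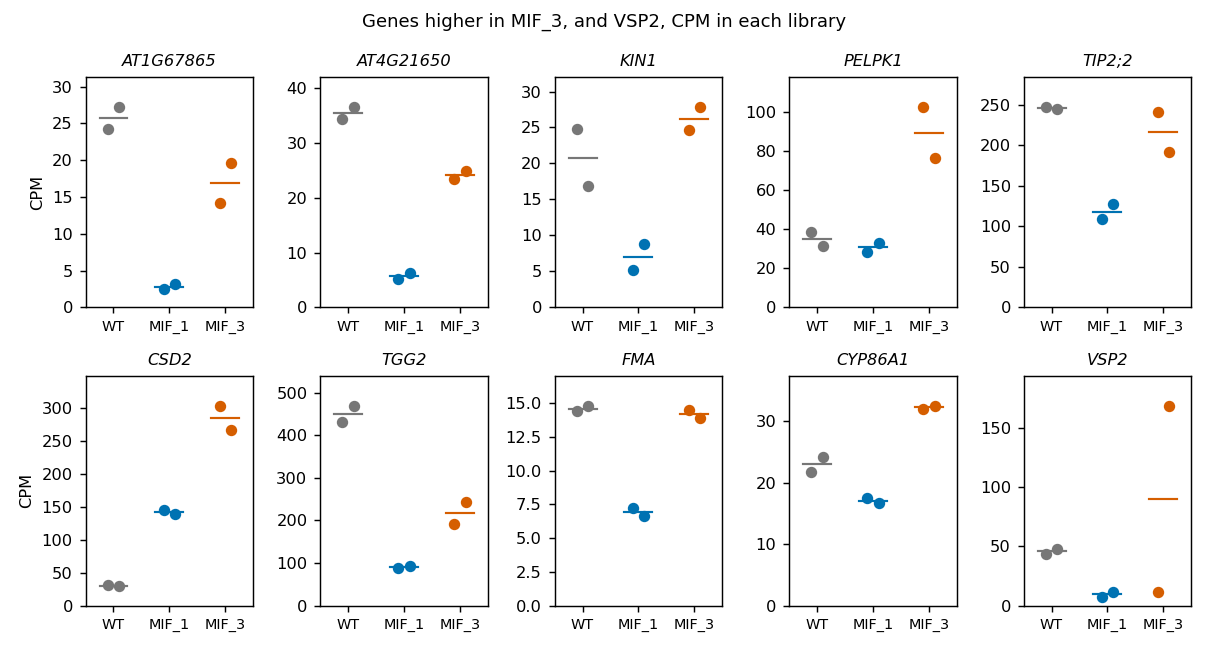
CPM (y axes, each from 0) in each library of WT, MIF_1 and MIF_3 for 9 genes called higher in MIF_3 than in MIF_1 and for VSP2, which was not called; points are libraries and lines are group means. MIF_3 lies between MIF_1 and WT for AT4G21650 and TGG2 and above WT for PELPK1, CSD2 and CYP86A1, and the 2 MIF_3 libraries are far apart for VSP2.

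Photosystem genes differed between the sets by a median about as large as that between the MIF_3 replicates. All 43 light harvesting and photosystem genes tested had a positive difference, with a median of 0.44, and 35 had an unadjusted p below 0.05. Over all genes tested, 10518 of 20438 differences were positive. The MIF_3 replicates differed from each other by a median of 0.46 and the MIF_1 replicates by 0.14, between single libraries and not set means. CPM summed over the list was 58456 and 64798 in MIF_1 against 69696 and 97563 in MIF_3, without overlap. The WT sums were 119790 and 123480. Of the 43, 1 gene was called, 2.3% against 1.76% of all genes. That gene, PSAL, a subunit of photosystem I, read 2656 and 2673 CPM in WT, 1180 and 1249 in MIF_1 against 1596 and 2125 in MIF_3, a log2 difference of 0.62 ± 0.13 (edgeR adjusted p 0.0445). MIF_3 was above MIF_1 and below WT in both of its libraries, and MIF_3 replicate 2 was the nearer to WT. The number called was 39 without MIF_3 replicate 1, 2 without MIF_3 replicate 2, and 0 without any single one of the other 4 libraries. It was 17 with DESeq2 and 11 with no low-count filter, but 0 with upper-quartile factors, the stricter filter or the transgenic libraries alone (adjusted p of PSAL 0.0510 to 0.0759). The medians of these fits ran from 0.18, without MIF_3 replicate 2, to 0.68. Electron transport and carbon fixation genes (27 tested, median 0.20) and tetrapyrrole synthesis genes (32 tested, median 0.09) had no call.

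Copper enzymes of the plastid rose further above WT. CSD2, the copper/zinc superoxide dismutase of the chloroplast, read 30.9 and 29.5 CPM in WT, 144 and 139 in MIF_1 against 303 and 266 in MIF_3, at 1.00 ± 0.10 (edgeR adjusted p 0.00202). CCS, the chaperone that loads copper into it, read 20.3 and 20.7 CPM in WT, 54.8 and 51.4 in MIF_1 against 106 and 75.5 in MIF_3 (0.77). The order WT, MIF_1, MIF_3 held in every library of both. They were the 2 genes called higher of 42 in the oxidative stress list, where BAP1 and RBOHD were called lower. In all, 9.5% of that list was called, against 1.76% of all genes. Neither CSD2 nor CCS kept its call without a MIF_1 library (adjusted p 0.0504 to 0.385 with PSAL), and CCS lost it without MIF_3 replicate 1 (0.0755).

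The nuclear SCA3, a plastid RNA polymerase, was the only one of 43 plastid gene expression genes called, at -0.60. That is 2.3%, near the 1.76% of all genes. SCA3 overlaps another locus on the same strand. Its call ended without either MIF_1 library, either WT library or MIF_3 replicate 2, and with the transgenic libraries alone (edgeR adjusted p up to 0.342 over SCA3, CYP702A2 and CYP705A5). MORF2 (AT2G33430), named in the series title, read 103 and 98.4 CPM in WT, 111 and 107 in MIF_1 against 92.4 and 96.8 in MIF_3, a log2 difference of -0.21 ± 0.10 (edgeR adjusted p 0.33). None of the 7 MORF genes tested was called, although all 7 differences were negative, with a median of -0.21. MORF1 was the nearest to a call (-0.46, edgeR adjusted p 0.0873). The names MORF5 and MORF7 were not matched to a locus. None of 16 plastid signalling, 39 plastid-encoded or 7 mitochondrion-encoded genes tested was called. The counts listed 133 plastid-encoded and 152 mitochondrion-encoded loci, so that most of these were not tested. In these poly(A) libraries plastid-encoded loci held 0.0203% to 0.132% of the counts and mitochondrion-encoded loci 0.0276% to 0.0949%. The organelle transcripts as a whole are therefore not described by these few genes.

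Jasmonate genes differed more between the MIF_3 replicates than between the sets. The list of 43 genes had 2 called lower, the defence genes PDF1.3 and HCHIB, and none higher, 4.7% against 1.76% of all genes. Its median was 0.17 between sets but 0.68 between MIF_3 replicate 2 and replicate 1. VSP2, a storage protein and anti-insect phosphatase induced by jasmonate, read 44.0 and 48.2 CPM in WT, 7.02 and 11.8 in MIF_1 against 11.3 and 169 in MIF_3, a log2 difference of 3.26 ± 0.90 (edgeR adjusted p 0.115), and the sets overlapped. LOX2, the first enzyme of jasmonate synthesis in leaves, read 457 and 532 CPM in WT, 210 and 221 in MIF_1 against 260 and 1033 in MIF_3 (1.59, 0.129). In both genes MIF_3 replicate 2 alone was above WT. VSP1, TAT3 and CORI3, named after their values were seen, repeated this: CORI3 read 46.3 and 52.3 CPM in MIF_1 against 58.2 and 311 in MIF_3, and VSP1 read 5.38 and 8.18 in MIF_1 against 6.24 and 93.4 in MIF_3. Without MIF_3 replicate 1, 11 genes of the list were called higher, and without MIF_3 replicate 2 none was.

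Glucosinolates are sulfur-rich defence compounds that myrosinases cleave. MYB29, an activator of aliphatic glucosinolate synthesis, read 34.4 and 34.3 CPM in WT, 12.1 and 10.7 in MIF_1 against 21.1 and 20.2 in MIF_3. Its log2 difference was 0.86 ± 0.12 (edgeR adjusted p 0.00912), the only call among 25 genes of that branch. The share called was 4.0%, against 1.76% of all genes. The myrosinases, named after their values were seen, were higher as well: TGG2 read 432 and 470 CPM in WT, 88.0 and 94.2 in MIF_1 against 192 and 244 in MIF_3, at 1.26 ± 0.12 (0.00182), and TGG1 had 0.48. All 3 genes stood in the order MIF_1, MIF_3, WT from low to high. They lost their call without MIF_1 replicate 1 (0.0822 to 0.356), TGG2 alone kept it without MIF_1 replicate 2 (0.0469), and TGG1 lost it without either WT library (0.0592 to 0.0602) or with the transgenic libraries alone (0.0632). TGG1 and TGG2 are neighbours of similar sequence.

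In the gibberellin, auxin, cytokinin, brassinosteroid and cell wall lists, 0% to 3.8% of the genes were called, against 1.76% of all genes. GASA1, a small peptide gene of gibberellin response, read 99.5 and 96.1 CPM in WT, 106 and 120 in MIF_1 against 255 and 223 in MIF_3, at 1.08 ± 0.11 (edgeR adjusted p 0.00202), and was the only call of 30 gibberellin genes. MIF_3 was far above the other groups, of which MIF_1 was close to WT. XTH19, an enzyme that cuts and rejoins xyloglucan in the wall, read 21.9 and 18.9 CPM in WT, 82.3 and 91.1 in MIF_1 against 38.9 and 25.5 in MIF_3, at -1.43 ± 0.18 (0.00506), and EXPA16 was the other call among 53 expansin and xyloglucan genes. Of 70 auxin genes, the SAUR gene AT4G38860 (0.81) was called higher and PBS3 lower. Without MIF_1 replicate 1 the calls of GASA1, EXPA16, XTH19 and AT4G38860 all ended (0.077 to 0.392) and without MIF_1 replicate 2 GASA1 alone kept its call (0.0328). EXPA16 lost it without MIF_3 replicate 1, and AT4G38860 without MIF_3 replicate 2 (0.0975). No gene was called among 38 cytokinin, 30 brassinosteroid or 58 cell cycle and replication genes.

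Nutrient and carbon genes gave 10 calls, of which 9 were falls. The share called was 6.2% for phosphate starvation, 7.5% for nitrogen, 5.3% for starch and 6.7% for iron, against 1.76% of all genes. None of 33 sulfur genes was called. PPCK1, the kinase that activates phosphoenolpyruvate carboxylase, read 30 and 29.6 CPM in WT, 27.9 and 32.7 in MIF_1 against 9.40 and 8.90 in MIF_3, at -1.73 ± 0.13 (edgeR adjusted p 0.000331), so that MIF_1 overlapped WT and MIF_3 stood apart. It and SRG3, a glycerophosphodiester phosphodiesterase (-1.25), were the 2 calls of 32 phosphate starvation genes. Of 40 nitrogen genes, BT1, LBD37 and the nitrate reductase NIA1 (-0.79) were called, all lower. NIA1 read 181 and 234 CPM in WT, 380 and 386 in MIF_1 against 246 and 199 in MIF_3, so that MIF_3 overlapped WT and MIF_1 was high. Of 38 starch genes, the plastid beta-amylase CT-BMY (-0.91) and the granule-bound starch synthase GBSS1 (-0.68) were lower. Among 45 iron genes, the transporter YSL2 (-0.68) and the glucosidase BGLU42 (-0.52) were lower and the leaf ferric reductase FRO6 (0.90) higher.

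Of these 10, BT1 and PPCK1 alone stayed called without MIF_1 replicate 1 (edgeR adjusted p 0.0123 to 0.279), and these with CT-BMY without MIF_1 replicate 2 (0.00869 to 0.251). LBD37, YSL2 and BGLU42 lost their call without MIF_3 replicate 1 (up to 0.092), LBD37 and BGLU42 without MIF_3 replicate 2 (up to 0.152) or without either WT library (up to 0.0618), with upper-quartile factors or with the transgenic libraries alone (up to 0.0592). PPCK1, SRG3, CT-BMY and YSL2 overlap loci on the opposite strand. In the clock list, RVE1, a morning factor that raises auxin and lowers germination, was called (58.9 and 57.8 CPM in WT, 21.0 and 14.3 in MIF_1, 9.40 and 8.34 in MIF_3; -0.99), the only one of 13 morning genes. That 1 call was 7.7% of the morning genes, and none of 21 day and evening genes was called. Of 44 light signalling genes, HYH, a partner of the light factor HY5, was the only one called (-0.84), 2.3% against 1.76% of all genes. RVE1 overlaps a locus on the opposite strand. HYH lost its call without either MIF_1 library and RVE1 without MIF_1 replicate 1 or MIF_3 replicate 2 (0.0663 to 0.201).

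Wax and cuticle genes differed in both directions, with 1 of 49 called higher and 2 lower, 6.1% against 1.76% of all genes. CER1, an enzyme that makes wax alkanes, read 79.0 and 81.0 CPM in WT, 24.5 and 32.4 in MIF_1 against 65.7 and 42.7 in MIF_3 (0.93; edgeR adjusted p 0.0486), so that MIF_1 was the low group. The elongase KCS12 (-0.89) and the lipid transfer protein LTP2 (-0.47) were lower. All 3 calls ended without either MIF_1 library (adjusted p 0.154 to 0.396) and without MIF_3 replicate 1 (0.108 to 0.135), and LTP2's ended without MIF_3 replicate 2 (0.0728). CER1 and LTP2 also lost theirs without either WT library (0.0628 to 0.0632 at most) and with the transgenic libraries alone, CER1 with the stricter filter (0.0525) and LTP2 with upper-quartile factors (0.0658). CYP705A5, a P450 of the thalianol cluster, had a log2 difference of 0.92. It was the only call among 13 triterpene synthesis genes, 7.7% against 1.76% of all genes. It lost that call without either MIF_1 library and without MIF_3 replicate 1 (0.123).

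Of 294 genes described as ribosomal proteins, 3 were called lower and none higher, and the median was -0.17. The share called was 1.0%, below the 1.76% of all genes tested. Of the 294, 70 had a positive difference and 89 an unadjusted p below 0.05, and DESeq2 called 17 lower and 1 higher. Named after their values were seen, 6 genes of ribosome biogenesis were lower, from -0.49 for AT3G05060, an NOP56-like protein, to -0.75 for AT1G23280, a MAK16-like protein, the others being AT5G27120, AT1G52930, AT1G31660 and OLI2. AT1G52930 read 31.9 and 27.3 CPM in WT, 44.1 and 46.9 in MIF_1 against 28.2 and 29.8 in MIF_3, so that MIF_3 overlapped WT. None of the 6 stayed called without either MIF_1 library (edgeR adjusted p 0.107 to 0.333) or without MIF_3 replicate 1 (0.0736 to 0.103), AT1G23280, AT1G52930 and AT1G31660 alone did without MIF_3 replicate 2, and AT3G05060 and OLI2 lost theirs without either WT library or with the transgenic libraries alone, and AT3G05060 with upper-quartile factors (0.0516). None of 43 SCF and proteasome genes, 33 heat shock genes or 16 reference genes was called, with medians of -0.01, -0.07 and 0.04.

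**Figure D5:**
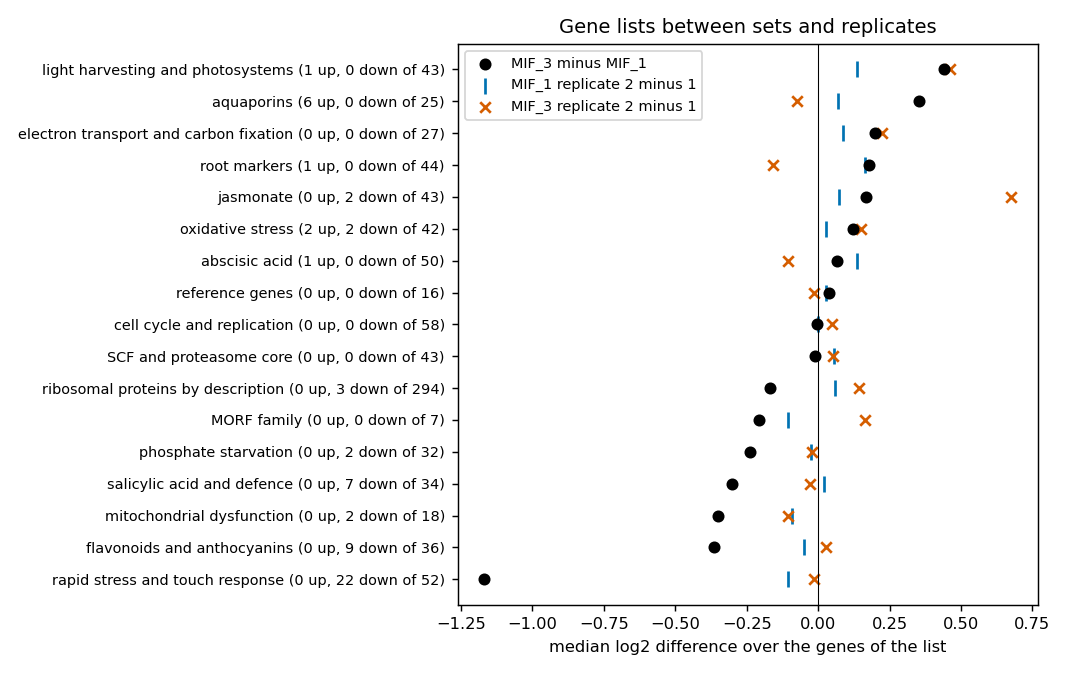
Median log2 difference (x axis) over the genes tested of 17 lists (y axis), between MIF_3 and MIF_1 and between the replicates of each set; each label gives how many genes were called higher and lower. The rapid stress list stands at -1.17, far outside its replicate medians, while the photosystem and jasmonate lists lie at or inside the difference between the MIF_3 replicates.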

How the data were processed

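Poly(A) RNA of whole seedlings was sequenced, per the labels' protocols, in 2 libraries each of WT, MIF_1 and MIF_3, grouped by their titles and genotypes. The values used were read counts per locus as deposited by the authors, 32834 loci of raw whole-number counts without normalization. Per the submitters' processing notes, the tools were fastp, STAR and HTSeq and the genome build TAIR10. Not given in the sources used here are versions, annotation release, strand setting and how reads with several matches were handled.

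The test was edgeR's quasi-likelihood test (edgeR 4.0.16, with limma 3.58.1, R 4.3.3) on the 20438 genes that passed filterByExpr at a minimum count of 10 and a minimum total of 15. All 6 libraries entered 1 fit with TMM factors and a mean for each group, so that the 3 groups share 1 estimate of the spread. It had 3 residual and 6.69 prior degrees of freedom, and the common dispersion was 0.0174. The contrast was MIF_3 minus MIF_1, and a gene was called where its p, adjusted by Benjamini-Hochberg over every gene tested, was below 0.05. The SE is the size of the log2 difference over the square root of its F statistic and is approximate. CPM came from TMM-scaled library sizes.

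Gene names, overlaps and upstream stretches came from TAIR10.1 (RefSeq); 32548 of 32834 loci had a record, and MORF2 was given by its locus AT2G33430. The comparison, the 51 gene lists and the tests were chosen with earlier results of these data known. Of 1930 names in the lists, 170 were not matched. After values were seen, 36 members were taken out because the name matched another gene or role and 18 were put in by locus. This removed 1 lower call from the flavonoid list and added 1, FAH1, to the lignin and suberin list.

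Genes named were the 15 largest rises and falls among called genes whose average log2 CPM was 1 or more and whose sets do not overlap, the 5 smallest p, up to 4 members per list by p, other members needed to say what a list holds, and MORF2; others are said to be named after their values were seen. The alternatives were other size factors (RLE, upper quartile), the low-count filter dropped or made stricter, a fit without organelle-encoded genes, a fit of the transgenic libraries alone, a replicate block, DESeq2 1.42.0, an adjusted p below 0.01, a 2-fold limit, and leaving out each library. A library left alone in its group takes its spread from the other groups.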

Additional observations from a re-analysis of the deposited data

How the results depend on the processing

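Against 97 genes higher and 263 lower, no low-count filter gave 242 and 445, DESeq2 263 and 479, an adjusted p below 0.01 16 and 85, and a 2-fold limit 43 and 134. All 97 and 259 of the 263 were also called by DESeq2. RLE and upper-quartile factors, the stricter filter, removal of organelle-encoded genes and the transgenic libraries alone gave 93 to 108 higher and 246 to 303 lower. Leaving out each library gave 2 to 239 higher and 18 to 306 lower, the lowest counts without MIF_1 replicate 1 and the highest without MIF_3 replicate 1 and WT replicate 1. Whether same-numbered libraries were prepared together is not given. Deviations of same-numbered MIF_1 and MIF_3 libraries had a correlation of 0.036. This shows no large effect shared by replicate number, but cannot show how the libraries were prepared. A replicate block gave 75 higher and 220 lower. Among the named genes it left uncalled CYP708A1, EXPA16, HMT3, BGLU7 and AT1G49960 of the 15 largest rises and all ribosome biogenesis genes except AT1G52930. It did the same for TCH2, COR413-PM1, MKK9, CBP60G, TT7, LBD37, 4CL2, GPAT5, AT5G66390, AT4G38860, TGG1, BGLU42, ATCAD4, FAR5, CER1, LTP2, SCA3 and CYP705A5. The stricter filter did not test CBF1, CWINV5, EXL6 and AT5G24200.

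Over 143 named genes and their 1998 values under alternatives, 1623 kept direction and call, 341 lost the call, 33 gained it and 1 changed sign. That 1 was VSP1, which was not called and whose log2 difference was 3.78 without MIF_3 replicate 1 and -0.12 without MIF_3 replicate 2; the cause was not tested. Of 824 alternative medians over 59 gene lists and marker groups, 147 moved by more than the replicate spread.

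With 2 libraries a set and 3 residual degrees of freedom, a gene that was not called is not shown to be equal between sets. The MIF_3 replicates had the most genes 2-fold apart, 220 against 199 in WT and 50 in MIF_1, and counts near 0 limit what can be said of CBF1, EXL6 and AT2G43580.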
